A study of Homo sapiens with 24 samples.

Results

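The genes described here encode mitotic kinases, cyclins, checkpoint proteins, centromere and kinetochore proteins, spindle and cytokinesis proteins and a pair of transcription factors of mitosis. They are 40 of the 58051 genes in the count tables and were chosen by symbol, leaving out cohesin genes and kinesins other than CENPE. Their RNA was measured in 24 libraries of 4 human cancer cell lines: SW620, a colorectal adenocarcinoma line (COAD), BxPC-3, a pancreatic adenocarcinoma line (PAAD), LNCaP, a prostatic adenocarcinoma line (PRAD), and HCC-70, a triple-negative breast cancer line (TNBC). For each line there were 3 control libraries and 3 libraries of cells given Ocoxin, a commercial nutritional supplement, for 48 h. The dilution was 1:700 for COAD and TNBC, 1:500 for PAAD and 1:50 for PRAD, in each case the IC50 dose of the study's viability assays, so doses differed between lines. Cells were grown in RPMI-1640, Ocoxin was given in medium with little serum, and only the RNA of cells still attached was isolated. The treatment followed the viability assays, in which fresh Ocoxin was added again midway. The study calls the controls untreated and does not state the serum in their medium. If that serum differed, its effect cannot be told apart from that of Ocoxin. The labels do not say that the 3 libraries of a group came from separate cultures, so p-values measure the spread between these libraries, which may be technical.

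Entry into mitosis depends on the kinase CDK1, which is bound by A-type and B-type cyclins and switched on by the CDC25 phosphatases. Polo-like and Aurora kinases then build the spindle, the checkpoint proteins hold back the anaphase-promoting complex until every kinetochore is attached, and CDC20 and UBE2C let that complex mark cyclin B and securin for destruction. Many of these genes are transcribed late in the cell cycle under MYBL2 and FOXM1, through promoter elements known as the cell cycle homology region (CHR) and the CCAAT box, and they are little expressed in resting cells, so their RNA is widely used as a measure of dividing cells. In RNA from a whole culture, fewer dividing cells and less RNA per dividing cell cannot be told apart.

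RefSeq promoters (GRCh38.p14) were matched by symbol for 33 of the 40 genes. AURKA, BUB3, TTK, TPX2, BIRC5, UBE2C and FOXM1 were not matched. In a window from 250 bases before to 50 bases after the start, a CHR (TTTGAA or TTCGAA, either strand) was found in 23 of the 33 (69.7%) and in 16.4% of all 35116 promoters. The CCAAT box was found in 24 (72.7%), against 34.6% of all promoters, and both elements in 18 (54.5%), against 6.38%. The E2F motifs TTTGGCGC, TTTCCCGC and TTTCGCGC, also on either strand, occurred in 3 of the 33 (9.09%), namely CENPA, CDC25A and CDK1, and in 2.74% of all promoters. These shares describe letters in a window and not bound sites. The 250 bases before the start are shown for the 6 matched genes that passed the test in most cell lines, with ties settled by the smallest adjusted p, so that the letters can be set beside the responses of these genes. Each runs 5′ to 3′ on the strand of the gene, and capitals mark CHR and CCAAT letters on either strand.
CDC25B, chr20:3786701-3786950, plus strand: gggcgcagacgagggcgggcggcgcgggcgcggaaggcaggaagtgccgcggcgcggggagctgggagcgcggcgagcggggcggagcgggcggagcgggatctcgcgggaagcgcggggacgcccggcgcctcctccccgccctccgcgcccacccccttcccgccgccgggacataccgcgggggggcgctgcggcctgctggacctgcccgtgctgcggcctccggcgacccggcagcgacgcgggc
TOP2A, chr17:40417897-40418146, minus strand: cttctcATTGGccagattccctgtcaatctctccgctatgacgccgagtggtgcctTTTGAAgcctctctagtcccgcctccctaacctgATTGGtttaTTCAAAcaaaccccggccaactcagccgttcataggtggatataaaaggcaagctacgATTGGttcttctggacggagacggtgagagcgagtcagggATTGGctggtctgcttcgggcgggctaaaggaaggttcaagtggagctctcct
INCENP, chr11:62123761-62124010, plus strand: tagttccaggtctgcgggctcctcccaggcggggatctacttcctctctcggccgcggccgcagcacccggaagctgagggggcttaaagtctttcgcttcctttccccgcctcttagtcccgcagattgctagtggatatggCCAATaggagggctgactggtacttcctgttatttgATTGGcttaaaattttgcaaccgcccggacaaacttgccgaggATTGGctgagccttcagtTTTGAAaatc
MYBL2, chr20:43666864-43667113, plus strand: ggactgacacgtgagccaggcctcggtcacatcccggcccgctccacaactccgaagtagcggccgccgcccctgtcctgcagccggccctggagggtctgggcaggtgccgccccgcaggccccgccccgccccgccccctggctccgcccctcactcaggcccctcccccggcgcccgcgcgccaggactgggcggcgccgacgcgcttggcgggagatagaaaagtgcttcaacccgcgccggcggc
PLK1, chr16:23678639-23678888, plus strand: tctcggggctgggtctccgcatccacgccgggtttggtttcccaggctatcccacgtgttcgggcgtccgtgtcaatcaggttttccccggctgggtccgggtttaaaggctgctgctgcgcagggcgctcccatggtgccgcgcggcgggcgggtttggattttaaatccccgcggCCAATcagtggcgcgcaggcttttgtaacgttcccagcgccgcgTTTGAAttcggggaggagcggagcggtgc
ANLN, chr7:36389612-36389861, plus strand: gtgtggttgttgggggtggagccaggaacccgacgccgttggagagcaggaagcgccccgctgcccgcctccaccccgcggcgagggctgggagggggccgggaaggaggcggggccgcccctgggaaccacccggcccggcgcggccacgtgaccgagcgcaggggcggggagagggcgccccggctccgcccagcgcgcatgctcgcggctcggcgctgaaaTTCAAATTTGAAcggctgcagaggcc
PLK1 held a CCAAT box 73 bases and a CHR 29 bases before the start. INCENP held 3 CCAAT boxes and a CHR 10 bases before the start. TOP2A held 4 CCAAT boxes and 2 CHR letters, and ANLN a pair of adjoining CHR letters with no CCAAT. Neither motif, nor any of the exact E2F strings searched, was found in the 250 bases shown for CDC25B or MYBL2. Other forms of an E2F site were not searched, so these promoters may still hold one.

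COAD libraries held 25160757 to 34397801 counts, PAAD libraries 31101178 to 34231106, TNBC libraries 36863490 to 39009959 and PRAD libraries 9063968 to 9520969. PRAD counts came from a separate table that counted a read pair once, while the other lines have about 2 counts per pair, so counts were compared only within a line. The gene with the fewest counts was SPC25, with at least 105 counts in each PRAD library and at least 299 in each library of the other lines. Labelled cell types were checked against markers. LNCaP libraries held all 6 prostate luminal markers (KLK3 at a mean of 391 CPM, counts scaled to the library total after TMM normalisation), whose sum was 1890 to 1960 CPM in controls and 1630 to 1800 with Ocoxin, BxPC-3 libraries all 5 ductal markers with 0 counts of SMAD4, which this line has lost, and HCC-70 libraries 4 of 5 basal markers with 0 counts of SOX10. Of the receptors that name the triple-negative class, HCC-70 libraries had 0 counts of PGR, a mean of 7.14 CPM of ESR1 and 260 CPM of ERBB2, the last beside 130 in COAD, 126 in PAAD and 244 in PRAD. SW620 libraries held 3 of 5 colon markers above 1 CPM (VIL1, CDX2 and CDH17), while CDX1 and GPA33 stayed below it. Marker lists were not exclusive to the labelled cells, and some sums moved with treatment. Basal markers summed in PAAD to 5740 to 6370 CPM in controls and 4810 to 5390 with Ocoxin, above the 2280 to 2590 of HCC-70 controls. All 5 ductal markers were also above 1 CPM in COAD and TNBC, and SMAD4 had a mean of only 1.39 CPM in COAD. Ductal markers summed in PAAD to 2420 to 2820 CPM in controls and 2250 to 2530 with Ocoxin. In TNBC the sums were 2730 to 2850 and 2260 to 2510 CPM, and in PRAD 32.7 to 38.6 and 46.9 to 54.3. In COAD the basal sums were 35.2 to 37 and 46.2 to 50 CPM. In PAAD the 4 endothelial markers summed to 66.3 to 73.5 CPM in controls and 104 to 119 with Ocoxin, in PRAD to 72.3 to 82.7 and 42.2 to 56.6, with KDR at 0 counts in both lines. In COAD the 6 leukocyte markers, led by LYZ, summed to 9.39 to 9.99 and 14.8 to 15.6 CPM, with PTPRC at 2 counts or fewer per library. Their part in the results below was not tested.

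Levels are given in CPM, and responses as log2 fold changes, Ocoxin over control, from edgeR's quasi-likelihood test, with p-values adjusted by Benjamini-Hochberg over all genes tested in that line. All 40 genes were tested in every line. In COAD, 39 of the 40 had a log2 fold change below 0, with a median of -0.17 against -0.0053 for all 17659 genes tested. Of them 14 fell (35%) and 0 rose, where 1.09% of all genes tested fell and 1.47% rose. The 14 were ANLN, ASPM, AURKB, BUB1, BUB1B, CDC20, DLGAP5, ECT2, FOXM1, INCENP, PLK1, PRC1, TOP2A and TPX2. Control and Ocoxin levels did not overlap for 24 genes, all lower (60%), where 10.4% of all genes lay wholly lower and 10.2% wholly higher. The count of 14 depended on single libraries: leaving out control replicate 2 gave 4, Ocoxin replicate 2 gave 5 and control replicate 1 gave 8. Calls over all genes shrank as well, from 192 lower with no library left out to 30, 24 and 36 in these settings. Between 37 and 40 of the 40 genes stayed below 0 whichever library was left out.

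In PRAD every one of the 40 genes had a log2 fold change below 0, and the median was -0.27, against 0.0088 for all 17070 genes tested. Only CDC25A and CDCA8 passed (5%), where 0.58% of all genes fell and 2.4% rose. DESeq2 called 12 of the 40, all lower, and of all 17070 genes 174 lower and 436 higher. A fit with the replicate number as a block, an open choice described below, called 26, all lower, and of all genes 459 lower and 992 higher. The groups did not overlap for 32 genes, all lower (80%), where 12.4% of all genes lay wholly lower and 15.2% wholly higher. One library stood apart: PRAD Ocoxin replicate 1 held the lowest of the 6 levels for 40 of the 40 genes. Without it the median was -0.19, all 40 genes stayed below 0 and 0 were called by edgeR, where 11 of all 17369 genes tested were called lower. Leaving out Ocoxin replicate 2, or any of the 3 controls, also gave 0. Of all genes, those called lower then numbered 0 without Ocoxin replicate 2 and 32, 0 and 4 without controls 1, 2 and 3. Leaving out Ocoxin replicate 3 gave 4 of the 40, where 83 of all genes were called lower.

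PAAD and TNBC gave no common direction. In PAAD 23 genes lay below and 17 above 0 (median -0.03, against 0.0027 for all 17280 genes), CDC25B and FOXM1 rose (5%) and 0 fell, where 4.72% of all genes rose and 3.62% fell. The groups lay wholly apart for 4 lower and 5 higher genes, shares of 10% and 12.5% beside 13.9% and 13.6% of all genes. In TNBC 22 genes lay below and 18 above 0 (median -0.0062, against 0.0056 for all 17352 genes). There CDK1, HMMR, MYBL2 and UBE2C fell (10%) and CDC25B, FOXM1, INCENP, MKI67 and TOP2A rose (12.5%), where 11.3% of all genes fell and 9.65% rose. There 7 lower and 7 higher genes had groups that did not overlap (17.5% each), beside 19.8% and 18.3% of all genes. In PAAD and TNBC the shares of the 40 that passed were near those of all genes, except that 0 fell in PAAD.

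**Figure D1:**
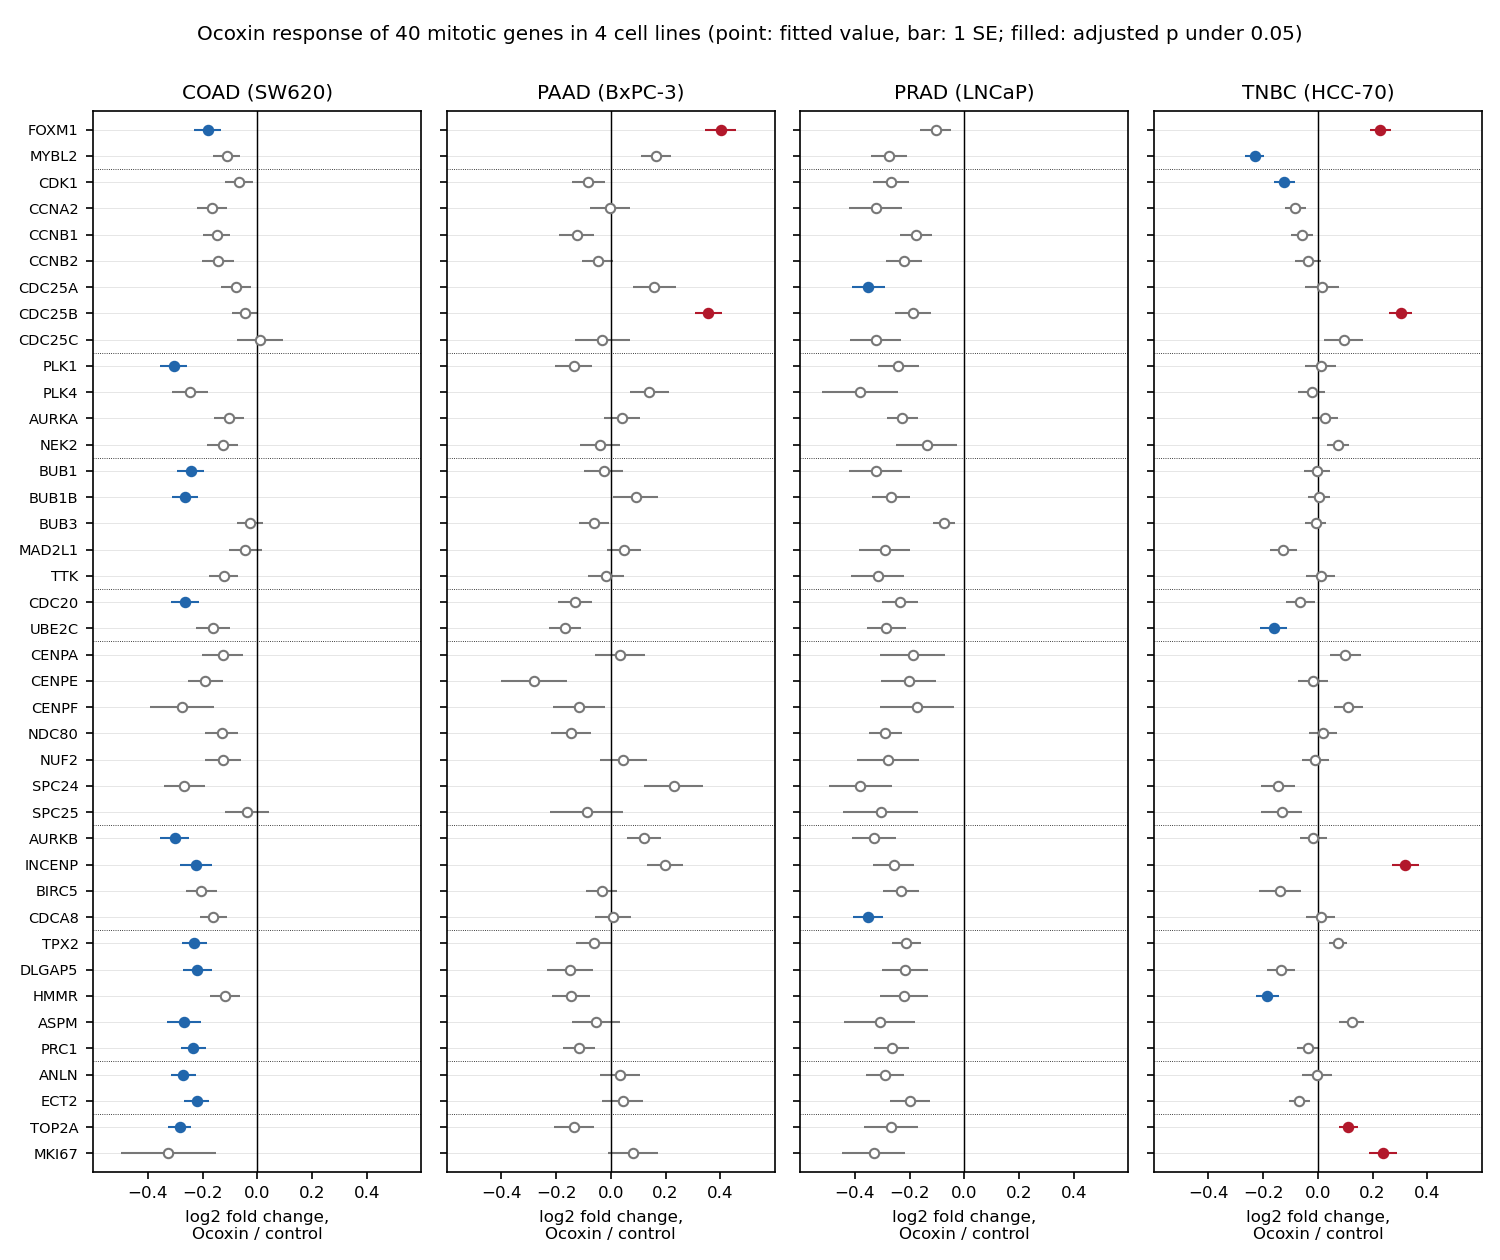
Log2 fold change (x axis, Ocoxin over control, bars 1 SE) of the 40 mitotic genes in each cell line, grouped by role between dotted lines; filled points passed an adjusted p of 0.05. In PRAD all 40 points and in COAD 39 of 40 lie left of 0, while those of PAAD and TNBC lie on both sides.

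Across lines, 18 genes passed in no line, 18 in a single line, CDC25B, INCENP and TOP2A in 2 lines and FOXM1 in 3. The direction of the fitted value was lower in all 4 lines for 14 genes: CDK1, CCNA2, CCNB1, CCNB2, CDC20, BUB1, BUB3, CENPE, SPC25, BIRC5, DLGAP5, HMMR, PRC1 and UBE2C. It was lower in 3 lines for 16 and in 2 lines for 10, and for none in fewer than 2. These counts of lines were not made over all genes, so they do not show whether such numbers are unusual. Over the 40 genes, Pearson correlations between the log2 fold changes of 2 lines ran from -0.15 (COAD and TNBC) to 0.403 (PAAD and TNBC), which describes these genes only.

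FOXM1 is a forkhead transcription factor of late cell cycle genes. In COAD cells FOXM1 was at 230, 229 and 230 CPM in the controls and 206, 209 and 192 CPM with Ocoxin (log2 fold change -0.18, SE 0.048, adjusted p = 0.0453). In PAAD cells FOXM1 stood at 116, 123 and 115 CPM in the controls and 153, 156 and 160 CPM with Ocoxin (log2 fold change 0.4, SE 0.0553, adjusted p = 0.000314). TNBC cells held 229, 229 and 216 CPM in the controls and 269, 262 and 258 CPM with Ocoxin (log2 fold change 0.23, SE 0.0377, adjusted p = 0.00125). The groups did not overlap in any of these lines, and FOXM1 was lower with Ocoxin in COAD and higher in PAAD and TNBC. PRAD cells held 147, 143 and 158 CPM in the controls and 130, 143 and 145 CPM with Ocoxin, with a log2 fold change of -0.1 that did not pass (adjusted p = 0.348), and the groups overlapped. The COAD call was near the threshold and was lost under 10 of 15 alternatives, with adjusted p from 6.74e-07 to 0.206, while those in PAAD and TNBC were kept under all 15. Of the exonic bases of FOXM1, 15.9% are shared with neighbouring genes, the largest overlap being with ITFG2. Since strand was not used in counting, reads from the shared bases cannot be assigned to a single gene.

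MYBL2, also called B-Myb, works with the MuvB complex at CHR promoters. In TNBC cells, MYBL2 was at 567, 606 and 592 CPM in the controls and 513, 491 and 500 CPM with Ocoxin (log2 fold change -0.23, SE 0.0358, adjusted p = 0.000815), and every treated library lay below every control. In PAAD cells MYBL2 was at 204, 207 and 203 CPM in the controls and 217, 238 and 234 CPM with Ocoxin, all treated libraries being higher, with log2 fold change 0.17, SE 0.0544, adjusted p = 0.0744. In TNBC, MYBL2 fell while FOXM1 rose. In PRAD cells MYBL2 was at 132, 136 and 151 CPM in the controls and 110, 112 and 124 CPM with Ocoxin, a log2 fold change of -0.28 (adjusted p = 0.0747). COAD cells had 249, 259 and 278 CPM in the controls and 241, 249 and 238 CPM with Ocoxin of MYBL2, wholly lower with Ocoxin, but the log2 fold change of -0.11 did not pass (adjusted p = 0.269). Per kilobase of exon, MYBL2 was the most abundant of the 40 in TNBC controls (212 CPM per kilobase) and TOP2A in COAD controls (135).

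**Figure D2:**
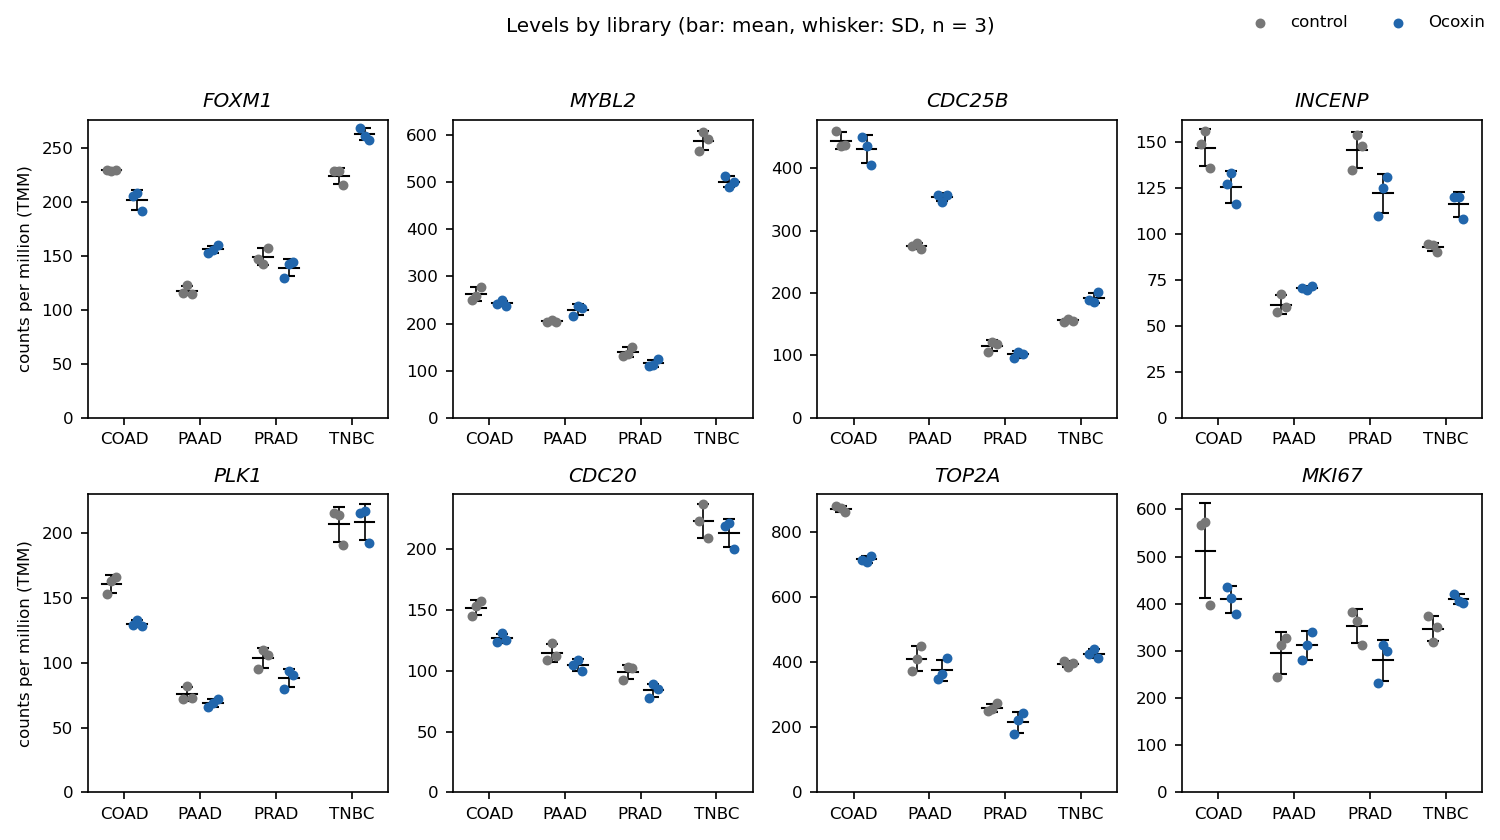
CPM of 8 mitotic genes (y axis from 0) in each library, with the mean and SD of 3 libraries. FOXM1 was lower with Ocoxin in COAD (202 against 230 CPM) and higher in PAAD (156 against 118 CPM) and TNBC (263 against 225 CPM), while MYBL2 in TNBC was lower (501 against 588 CPM).

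CDK1, its cyclins and the CDC25 phosphatases make up 7 of the 40 genes. CDK1 itself was at 156, 154 and 160 CPM in the controls and 142, 141 and 148 CPM with Ocoxin in TNBC (log2 fold change -0.12, SE 0.0387, adjusted p = 0.0391), with no overlap between groups, although the call was lost under 6 of 15 alternatives (adjusted p from 0.00103 to 0.149). PRAD cells had 137, 129 and 149 CPM in the controls and 108, 114 and 122 CPM with Ocoxin of CDK1, again without overlap (log2 fold change -0.27, SE 0.0652, adjusted p = 0.0746). CDK1 in COAD was at 261, 260 and 279 CPM in the controls and 239, 253 and 272 CPM with Ocoxin (adjusted p = 0.582) and in PAAD at 140, 140 and 155 CPM in the controls and 131, 135 and 146 CPM with Ocoxin (adjusted p = 0.47), and in both the groups overlapped. CCNB1, cyclin B1, was at 322, 317 and 345 CPM in the controls and 285, 294 and 308 CPM with Ocoxin in COAD (log2 fold change -0.15, adjusted p = 0.119). In PRAD CCNB1 was at 125, 127 and 134 CPM in the controls and 104, 117 and 120 CPM with Ocoxin (log2 fold change -0.18, adjusted p = 0.143). Every treated library was lower in both lines. In PAAD cells CCNB1 was at 138, 149 and 146 CPM in the controls and 123, 129 and 145 CPM with Ocoxin (adjusted p = 0.272). TNBC cells held 143, 146 and 140 CPM in the controls and 134, 143 and 135 CPM with Ocoxin of CCNB1 (adjusted p = 0.352). CCNA2 and CCNB2, cyclins A2 and B2, passed in no line, with their lowest log2 fold changes in PRAD (-0.32 and -0.22, adjusted p = 0.117 and 0.116).

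The 3 CDC25 genes, whose phosphatases remove the inhibitory phosphates from CDK1, are given together. CDC25B in PAAD was at 275, 281 and 271 CPM in the controls and 357, 346 and 357 CPM with Ocoxin (log2 fold change 0.36, SE 0.0504, adjusted p = 0.000381). CDC25B in TNBC was at 154, 159 and 155 CPM in the controls and 189, 186 and 202 CPM with Ocoxin (log2 fold change 0.3, SE 0.0409, adjusted p = 0.000312). In both lines all treated libraries exceeded all controls, and both calls were kept under all 15 alternatives. CDC25B in COAD was at 460, 436 and 438 CPM in the controls and 450, 436 and 406 CPM with Ocoxin (log2 fold change -0.04, adjusted p = 0.714) and in PRAD at 105, 122 and 119 CPM in the controls and 96, 106 and 103 CPM with Ocoxin (log2 fold change -0.19, adjusted p = 0.161). CDC25A, in contrast, fell in PRAD, with 95.5, 90.2 and 94.5 CPM in the controls and 69.1, 71.6 and 79 CPM with Ocoxin (log2 fold change -0.35, SE 0.0595, adjusted p = 0.0296), a call that was lost when any library but Ocoxin replicate 3 was left out (adjusted p from 0.000107 to 0.131). CDC25A was at 37.3, 39.6 and 45.3 CPM in the controls and 43.2, 46 and 47.1 CPM with Ocoxin in PAAD (log2 fold change 0.16, adjusted p = 0.236). COAD had 79.7, 89.1 and 86.1 CPM in the controls and 82.9, 80 and 78.5 CPM with Ocoxin and TNBC 22, 23.4 and 22.4 CPM in the controls and 23.6, 22.5 and 22.4 CPM with Ocoxin of CDC25A, with overlap in both. CDC25C passed in no line, with log2 fold changes from -0.32 in PRAD to 0.09 in TNBC.

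Of the 4 other mitotic kinases, PLK1, which drives centrosome maturation and mitotic entry, fell in COAD, with 153, 163 and 166 CPM in the controls and 129, 133 and 128 CPM with Ocoxin (log2 fold change -0.31, SE 0.0499, adjusted p = 0.00187), with no overlap, and the call was kept under all 15 alternatives (adjusted p from 4.96e-17 to 0.0238). In TNBC cells PLK1 was at 215, 214 and 191 CPM in the controls and 215, 217 and 192 CPM with Ocoxin, a log2 fold change of 0.0098 with an SE of 0.058. PRAD had 95.3, 110 and 106 CPM in the controls and 80, 93.7 and 90.2 CPM with Ocoxin of PLK1 (adjusted p = 0.131) and PAAD 72, 81.9 and 72.9 CPM in the controls and 65.7, 68.9 and 71.7 CPM with Ocoxin (adjusted p = 0.239). Treated libraries were wholly lower in COAD, PAAD and PRAD. Of the exonic bases of PLK1, 12.9% are shared with other genes, and strand was not used in counting. AURKA, the spindle pole kinase, passed in no line. AURKA was at 89.7, 84.4 and 91.9 CPM in the controls and 71.9, 79.7 and 75.8 CPM with Ocoxin in PRAD (log2 fold change -0.23, adjusted p = 0.0774), without overlap. Its levels were 119, 128 and 131 CPM in the controls and 112, 117 and 124 CPM with Ocoxin in COAD, 82, 90.1 and 87 CPM in the controls and 85.7, 84 and 96.8 CPM with Ocoxin in PAAD and 72.1, 72.6 and 70.5 CPM in the controls and 69.9, 73 and 76.3 CPM with Ocoxin in TNBC, and overlapped in all of these. PLK4, the kinase of centriole duplication, had a log2 fold change of -0.25 in COAD (adjusted p = 0.054), -0.38 in PRAD (adjusted p = 0.173) and 0.14 in PAAD (adjusted p = 0.254). NEK2, a centrosome kinase with 3 processed copies in the genome that make its counts less certain, passed nowhere, with log2 fold changes from -0.14 in PRAD to 0.07 in TNBC.

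The spindle checkpoint genes fell in part in COAD. BUB1, a checkpoint kinase at kinetochores, was there at 138, 143 and 142 CPM in the controls and 116, 118 and 124 CPM with Ocoxin (log2 fold change -0.24, SE 0.0496, adjusted p = 0.0098), with no overlap, and the call was lost under 3 of 15 alternatives. BUB1 in PRAD was at 111, 112 and 124 CPM in the controls and 78.6, 97.6 and 101 CPM with Ocoxin (log2 fold change -0.32, adjusted p = 0.113). In PAAD and TNBC the levels of BUB1 were 65.5, 67.2 and 70.7 CPM in the controls and 60.6, 66.8 and 72.3 CPM with Ocoxin, and 113, 114 and 109 CPM in the controls and 109, 119 and 107 CPM with Ocoxin, which overlapped in both. BUB1B, which encodes BubR1, a part of the mitotic checkpoint complex, fell in COAD (log2 fold change -0.27, SE 0.0484, adjusted p = 0.00411) and had a log2 fold change of -0.27 in PRAD (adjusted p = 0.0833). Of the exonic bases of BUB1B, 10.2% are shared with other genes, the largest overlap being with the readthrough gene BUB1B-PAK6. TTK, the MPS1 kinase, had a log2 fold change of -0.32 in PRAD (adjusted p = 0.122) and passed in no line. MAD2L1, which encodes the checkpoint protein MAD2, had a log2 fold change of -0.29 in PRAD and -0.13 in TNBC, with adjusted p of 0.135 and 0.0881. BUB3, the adaptor of BUB1 and BUB1B, had log2 fold changes between -0.08 and -0.0081 in all 4 lines and passed nowhere.

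The checkpoint's target, CDC20, which activates the anaphase-promoting complex, fell in COAD, with 145, 153 and 157 CPM in the controls and 124, 131 and 125 CPM with Ocoxin (log2 fold change -0.26, SE 0.0505, adjusted p = 0.00639). All treated libraries lay below all controls, and of 15 alternatives the call was lost under 1, without control replicate 2. In PRAD cells CDC20 was at 92.2, 103 and 102 CPM in the controls and 77.7, 88.7 and 85.2 CPM with Ocoxin, also without overlap (log2 fold change -0.24, adjusted p = 0.0968). In PAAD cells CDC20 was at 109, 123 and 112 CPM in the controls and 105, 109 and 99.6 CPM with Ocoxin (adjusted p = 0.231), and in TNBC cells at 223, 237 and 209 CPM in the controls and 219, 221 and 200 CPM with Ocoxin (adjusted p = 0.427). UBE2C, the ubiquitin-conjugating enzyme of the complex, had a log2 fold change of -0.16 for COAD cells, -0.17 for PAAD, -0.28 for PRAD and -0.16 for TNBC. It passed in TNBC (adjusted p = 0.0339) and in no other line (adjusted p = 0.189, 0.0947 and 0.0785). The 4 values lay within 0.12 of each other on the log2 scale, and the test of a difference among lines did not pass (adjusted p = 0.654). UBE2C has 5 processed copies, with which its counts may be split.

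The chromosomal passenger complex joins the kinase AURKB to INCENP, survivin (BIRC5) and borealin (CDCA8) at centromeres and the midzone. AURKB in COAD was at 150, 146 and 160 CPM in the controls and 128, 125 and 117 CPM with Ocoxin (log2 fold change -0.3, SE 0.0527, adjusted p = 0.00293), without overlap and kept under all 15 alternatives. AURKB in PRAD was at 64, 60.9 and 65.6 CPM in the controls and 44.7, 55.1 and 51.6 CPM with Ocoxin (log2 fold change -0.33, adjusted p = 0.0746). PAAD cells showed 46.9, 49.7 and 48.9 CPM in the controls and 52.2, 53.2 and 52.9 CPM with Ocoxin of AURKB, all treated libraries higher (adjusted p = 0.256), and TNBC cells 63.2, 65.7 and 63.5 CPM in the controls and 61.8, 66.9 and 61.7 CPM with Ocoxin (adjusted p = 0.858). INCENP in TNBC was at 94.7, 93.7 and 90.3 CPM in the controls and 120, 120 and 108 CPM with Ocoxin (log2 fold change 0.32, SE 0.0499, adjusted p = 0.000851), a rise without overlap that was kept under all 15 alternatives. INCENP in COAD was at 149, 156 and 136 CPM in the controls and 127, 133 and 116 CPM with Ocoxin (log2 fold change -0.22, SE 0.0593, adjusted p = 0.0485), a fall near the threshold that was lost under 9 of 15 alternatives (adjusted p from 1.91e-10 to 0.29). So 2 genes of the same complex, AURKB and INCENP, fell together in COAD, while in TNBC INCENP rose and AURKB differed by -0.02 with an SE of 0.0492. In PAAD cells INCENP was at 57.5, 67.1 and 60 CPM in the controls and 70.6, 69.5 and 71.7 CPM with Ocoxin (adjusted p = 0.0813), and in PRAD cells at 135, 154 and 148 CPM in the controls and 110, 125 and 131 CPM with Ocoxin (adjusted p = 0.107). CDCA8 fell in PRAD, with 99.8, 96.3 and 102 CPM in the controls and 72.6, 80.9 and 80.4 CPM with Ocoxin (log2 fold change -0.35, SE 0.0554, adjusted p = 0.0257), a call lost when any library but Ocoxin replicate 3 was left out. In COAD CDCA8 was at 107, 106 and 105 CPM in the controls and 95.4, 93.2 and 95.8 CPM with Ocoxin (adjusted p = 0.0909), without overlap, and it was at 66.1, 70 and 68.5 CPM in the controls and 65.8, 65.8 and 74 CPM with Ocoxin in PAAD and 138, 147 and 129 CPM in the controls and 142, 144 and 132 CPM with Ocoxin in TNBC, with overlap. BIRC5 passed in no line, with log2 fold changes of -0.2 in COAD (adjusted p = 0.0577), -0.23 in PRAD (adjusted p = 0.104) and -0.14 in TNBC (adjusted p = 0.241).

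Of the 7 centromere and kinetochore genes, 7 of 7 lay below 0 in COAD and in PRAD and 0 passed in any line. CENPA encodes the histone variant that marks centromeres. CENPA was at 35, 39.5 and 40.3 CPM in the controls and 32.2, 34.9 and 38.3 CPM with Ocoxin in COAD and 30.3, 30.5 and 35.5 CPM in the controls and 23.8, 29 and 31.8 CPM with Ocoxin in PRAD, with adjusted p of 0.441 and 0.418. In PAAD it was at 15.7, 18.5 and 16.9 CPM in the controls and 16.5, 17 and 18.8 CPM with Ocoxin and in TNBC at 43, 45.1 and 40.2 CPM in the controls and 46.9, 46.7 and 43.9 CPM with Ocoxin, and the groups overlapped in all 4 lines. NDC80, NUF2, SPC24 and SPC25 form the complex that holds microtubules. NDC80 in PRAD was at 91, 88.8 and 94.5 CPM in the controls and 68.8, 76.7 and 79.1 CPM with Ocoxin, without overlap (log2 fold change -0.29, adjusted p = 0.052). COAD had 60.9, 66.3 and 64.6 CPM in the controls and 54.8, 59.2 and 61.4 CPM with Ocoxin of NDC80 (adjusted p = 0.298). PAAD had 40.3, 42.2 and 46.7 CPM in the controls and 37.8, 40.1 and 39 CPM with Ocoxin (adjusted p = 0.245) and TNBC 90.6, 93.8 and 87 CPM in the controls and 92.3, 97 and 85.8 CPM with Ocoxin (adjusted p = 0.834). Within this complex the log2 fold changes in PAAD ran from -0.14 for NDC80 to 0.23 for SPC24 (adjusted p = 0.216), and in PRAD all 4 lay between -0.38 and -0.28. SPC24 also had a log2 fold change of -0.27 in COAD (adjusted p = 0.0584) and -0.15 in TNBC (adjusted p = 0.128). CENPE and CENPF, very large kinetochore proteins, had log2 fold changes of -0.28 and -0.12 in PAAD (adjusted p = 0.171 and 0.518). In TNBC CENPF had a log2 fold change of 0.11 (adjusted p = 0.164).

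Spindle and cytokinesis genes held 6 of the 14 falls in COAD. TPX2, which activates AURKA on the spindle, was at 332, 343 and 346 CPM in the controls and 285, 295 and 290 CPM with Ocoxin there (log2 fold change -0.23, SE 0.0452, adjusted p = 0.0079), without overlap, a call lost without control replicate 2 or Ocoxin replicate 2. TPX2 in TNBC was at 325, 317 and 330 CPM in the controls and 339, 345 and 340 CPM with Ocoxin, wholly higher (log2 fold change 0.07, adjusted p = 0.134). In PRAD TPX2 was at 174, 172 and 186 CPM in the controls and 143, 157 and 160 CPM with Ocoxin (adjusted p = 0.0796) and in PAAD at 204, 214 and 223 CPM in the controls and 192, 196 and 227 CPM with Ocoxin (adjusted p = 0.641). HMMR, a spindle assembly factor and hyaluronan receptor, fell in TNBC, with 71.8, 73.2 and 73.5 CPM in the controls and 63.6, 64.7 and 63.9 CPM with Ocoxin (log2 fold change -0.18, SE 0.0429, adjusted p = 0.00923), without overlap, a call lost only with all 24 libraries in a single fit. The log2 fold changes of HMMR in the other lines were -0.12 in COAD, -0.15 in PAAD and -0.22 in PRAD, with levels of 90, 93.4 and 94.8 CPM in the controls and 81.4, 83.7 and 91.4 CPM with Ocoxin, 56.1, 58.4 and 62.5 CPM in the controls and 50, 53.3 and 56.8 CPM with Ocoxin, and 131, 134 and 145 CPM in the controls and 102, 119 and 131 CPM with Ocoxin. None of these passed (adjusted p = 0.301, 0.222 and 0.207). ANLN, anillin, a scaffold of the contractile ring, fell in COAD, with 257, 257 and 254 CPM in the controls and 207, 216 and 213 CPM with Ocoxin (log2 fold change -0.27, SE 0.0457, adjusted p = 0.00247), with adjusted p from 1.31e-10 to 0.0368 over the 15 alternatives. PRAD held 177, 176 and 187 CPM in the controls and 132, 148 and 161 CPM with Ocoxin of ANLN (adjusted p = 0.075). In PAAD and TNBC ANLN was at 198, 222 and 235 CPM in the controls and 206, 220 and 244 CPM with Ocoxin, and 428, 413 and 383 CPM in the controls and 422, 425 and 374 CPM with Ocoxin, which overlapped. ECT2, the exchange factor that activates RhoA for cytokinesis, fell in COAD (log2 fold change -0.22, SE 0.0458, adjusted p = 0.0103), as did PRC1, the midzone bundling protein (log2 fold change -0.23, SE 0.0469, adjusted p = 0.0089), DLGAP5, a spindle stabiliser (log2 fold change -0.22, SE 0.0531, adjusted p = 0.0277), and ASPM, a spindle pole protein (log2 fold change -0.27, SE 0.0617, adjusted p = 0.0241). In TNBC ASPM had a log2 fold change of 0.12 (adjusted p = 0.0664), against -0.13 for DLGAP5 (adjusted p = 0.08).

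TOP2A, the topoisomerase that untangles sister chromatids, gave the smallest adjusted p of the 40 in COAD. It fell there, with 881, 873 and 862 CPM in the controls and 714, 707 and 728 CPM with Ocoxin (log2 fold change -0.28, SE 0.0423, adjusted p = 0.000711), without overlap, and the call was lost under 1 of 15 alternatives, all 24 libraries in a single fit (adjusted p from 7.4e-11 to 0.0691 over the 15). In TNBC TOP2A was at 404, 385 and 397 CPM in the controls and 427, 440 and 414 CPM with Ocoxin (log2 fold change 0.11, SE 0.0361, adjusted p = 0.0438), a rise without overlap that was lost under 7 of 15 alternatives (adjusted p from 0.00154 to 0.47). PRAD held 251, 255 and 274 CPM in the controls and 181, 223 and 244 CPM with Ocoxin of TOP2A (adjusted p = 0.177) and PAAD 372, 411 and 451 CPM in the controls and 349, 364 and 412 CPM with Ocoxin (adjusted p = 0.297). MKI67, the proliferation marker Ki-67 that coats mitotic chromosomes, rose in TNBC, with 373, 319 and 350 CPM in the controls and 421, 406 and 402 CPM with Ocoxin (log2 fold change 0.24, SE 0.0504, adjusted p = 0.00621), without overlap, and its call was lost only with all 24 libraries in a single fit. In COAD MKI67 was at 567, 574 and 397 CPM in the controls and 435, 413 and 379 CPM with Ocoxin, where control replicate 3 lay below 2 of the 3 treated libraries and the log2 fold change of -0.33 did not pass (adjusted p = 0.47). PRAD had 382, 364 and 313 CPM in the controls and 231, 312 and 299 CPM with Ocoxin of MKI67, wholly lower (adjusted p = 0.16), and PAAD 244, 312 and 328 CPM in the controls and 281, 313 and 341 CPM with Ocoxin (adjusted p = 0.647).

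MKI67, CENPF, ASPM and CENPE are the 4 longest genes of the set (9444 to 12807 exonic bases). In COAD control replicate 3 their median lay at -0.23 on the log2 scale relative to the control mean, against 0.06 for the 4 shortest (UBE2C, SPC25, CENPA and CDC20, 1286 to 2038 bases), while controls 1 and 2 gave 0.09 and 0.11 for the long genes. Over the 40 genes, Spearman's rho of this deviation with exonic length was 0.56, 0.297 and -0.578 in COAD controls 1, 2 and 3. In PRAD Ocoxin replicate 1 the long genes lay at -0.58 and the short at -0.4, and in Ocoxin replicates 2 and 3 at -0.14 and -0.09 for the long. The part of transcript length in the results was not tested beyond an alternative in which each library's trend on length and GC was removed: 34 genes then fell in PRAD and 20 in COAD, all 40 lay below 0 in both, and medians were -0.33 and -0.2. Calls over all genes moved with it, to 1754 lower and 690 higher of 17070 in PRAD (median -0.06) from 99 and 409, and to 418 lower and 270 higher of 17659 in COAD (median -0.02) from 192 and 259.

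**Figure D3:**
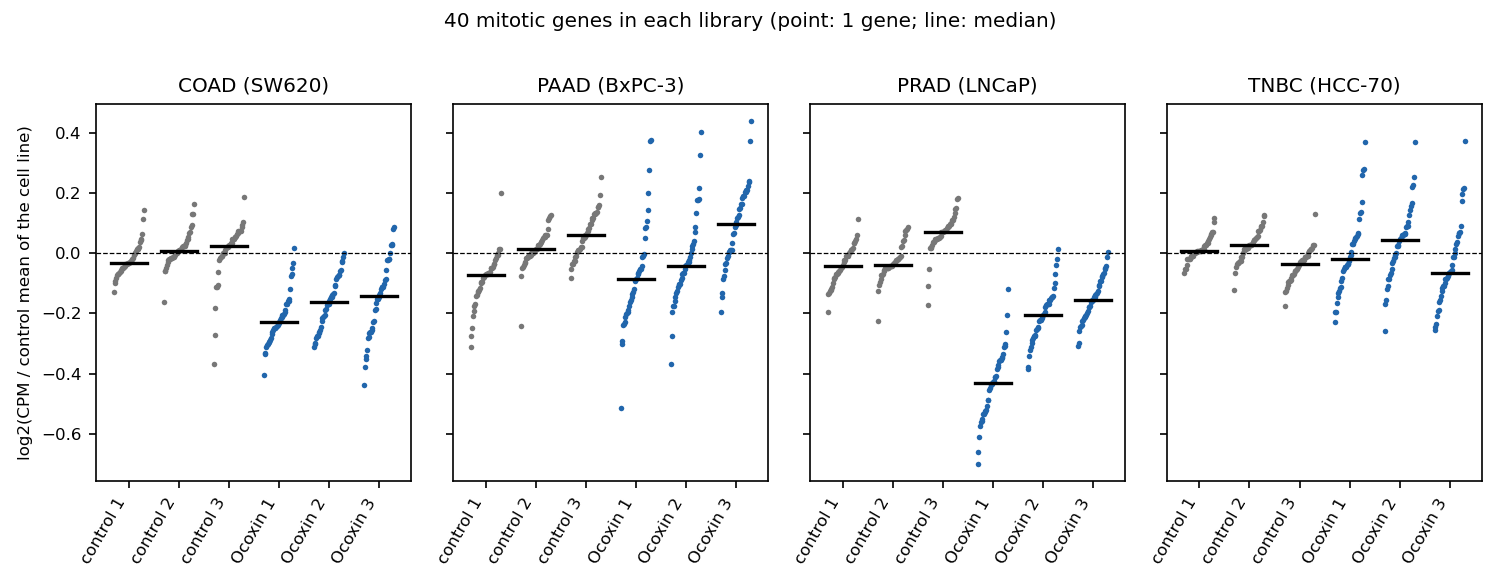
Each of the 40 mitotic genes in each library as log2 of its CPM over the control mean of its line (y axis), with the median of the library as a line. The medians of Ocoxin libraries are -0.22, -0.16 and -0.14 in COAD and -0.43, -0.2 and -0.15 in PRAD, below those of all controls, while in PAAD and TNBC they lie on both sides of 0.

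Library by library, the 40 genes summed to 7301 to 7500 CPM in COAD controls and 6396 to 6500 CPM with Ocoxin, and to 4924 to 5149 CPM and 3706 to 4529 CPM in PRAD. These sums did not overlap between groups. In PAAD the sums were 4081 to 4561 CPM and 4158 to 4663 CPM, and in TNBC 6305 to 6590 CPM and 6354 to 6672 CPM, which overlapped. In PAAD the medians of the 40 genes, relative to the control mean, were -0.07, 0.02 and 0.06 in the controls and -0.08, -0.04 and 0.1 with Ocoxin, so the groups overlapped there too.

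Other genes of cell division were counted from lists chosen with earlier results known. Of all genes tested, 1.09% fell and 1.47% rose in COAD, and 0.58% and 2.4% in PRAD. The shares were 3.62% and 4.72% in PAAD and 11.3% and 9.65% in TNBC, so calls in those lines are to be read beside these larger shares. Of 12 mitotic kinesins, 8 fell in COAD (median log2 fold change -0.21), 1 in PRAD (-0.3) and 1 in PAAD (0.02), and 1 rose in TNBC (0.04). Of 8 condensin subunits, which compact chromosomes, 6 fell in COAD (median -0.24) and 0 in PRAD (-0.24). Of 48 DNA replication genes, 7 fell in COAD (median -0.14), 8 in PRAD (median -0.25), while in PAAD 1 fell and 5 rose (0.05) and in TNBC 2 fell and 3 rose (-0.03). The same 2 lines, COAD and PRAD, thus had lower medians in these lists as in the 40 genes. Of 30 other centromere and kinetochore genes, 3 fell in COAD (median -0.1) and 1 in PRAD (-0.16). Of 25 other spindle and cytokinesis genes, 25 lay below 0 in both COAD and PRAD, where 8 and 0 fell (medians -0.17 and -0.23), and in TNBC 1 fell and 6 rose (0.1). The 14 subunits of the anaphase-promoting complex itself had medians of -0.05 in COAD and -0.02 in PRAD, and 1 and 0 fell. Of 8 other checkpoint genes 1 fell in COAD (median -0.06), and of 19 other genes of mitotic entry and exit 2 fell in COAD (-0.1) and 2 in PRAD (-0.16).

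Of 24 upstream regulators 3 fell and 1 rose in COAD, where 18 lay below 0 (median -0.1). Of 23 tested in PRAD 1 fell, and 16 lay below 0 (median -0.11). In PAAD 2 of 23 fell and 4 rose (median 0.07), and in TNBC 1 of 23 fell and 4 rose (median 0.04). Of all genes tested, 3.62% fell and 4.72% rose in PAAD, and 11.3% and 9.65% in TNBC. The shares were 1.09% and 1.47% in COAD and 0.58% and 2.4% in PRAD. CDKN1A, the CDK inhibitor p21, rose in COAD (log2 fold change 0.53, SE 0.115, adjusted p = 0.0137) and in PAAD (0.28, SE 0.0648, adjusted p = 0.0146) and fell in TNBC (-1.16, SE 0.0613, adjusted p = 2.99e-07), from 48.1 ± 2 CPM to 21.5 ± 1.22 CPM (SD, n = 3). E2F7, a repressor of cell cycle genes, fell in COAD (-0.32, adjusted p = 0.0151) and rose in PAAD (0.47, adjusted p = 0.00269).

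**Figure D4:**
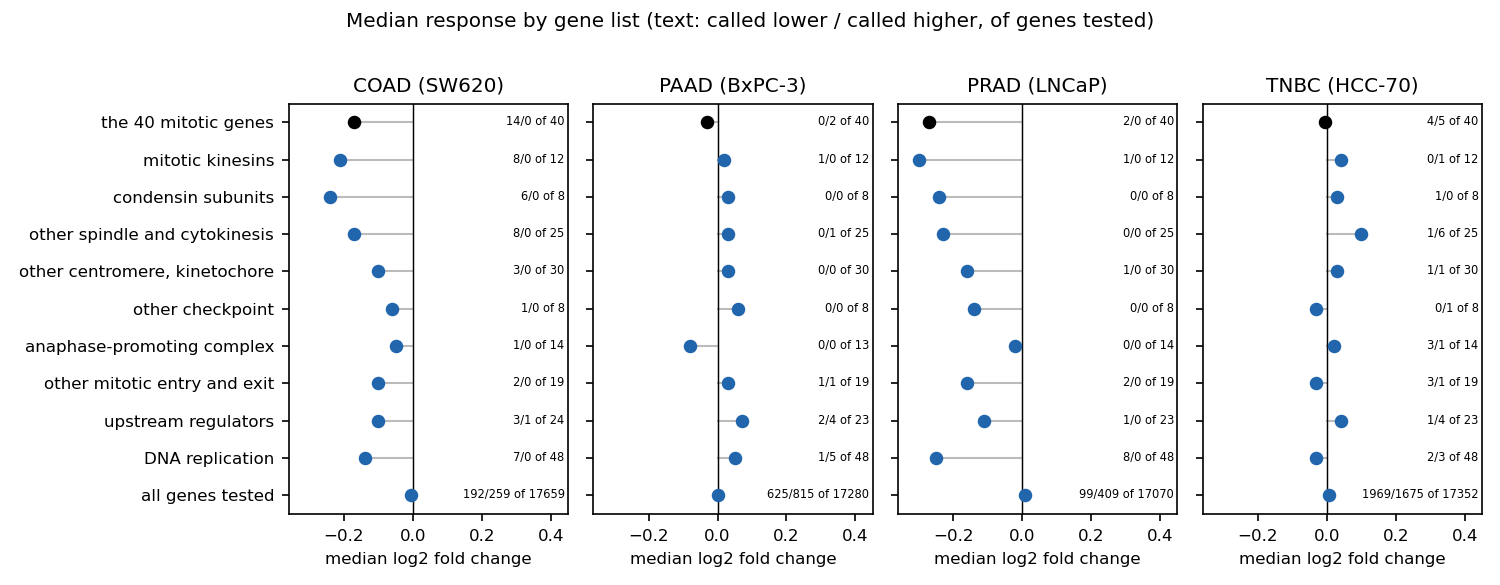
Median log2 fold change (x axis) of the 40 mitotic genes (black) and of other gene lists (blue) in each cell line, with the numbers called lower and higher of the genes tested. In COAD and PRAD the 40 genes have medians of -0.17 and -0.27, and in PAAD and TNBC of -0.03 and -0.0062.

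Whether responses differed between lines was tested as an interaction over all 24 libraries. Of the 40 genes, 14 differed among the 4 lines, where 10.9% of the 24631 genes tested did. Without PRAD, 12 of the 40 differed, where 11% of 21068 genes did. The smallest adjusted p-values belonged to FOXM1 (5.24e-07), CDC25B (1.57e-06), INCENP (2.13e-05), MYBL2 (0.000202) and AURKB (0.000405). For these 5 genes the range between the lowest and highest line was 0.58, 0.54, 0.58, 0.44 and 0.45 on the log2 scale. CDC25A, PLK4, BUB1, BUB1B, TPX2, TOP2A, SPC24, CDCA8 and ANLN also passed. The others did not pass, among them HMMR (adjusted p = 0.762), DLGAP5 (0.903), BUB3 (0.77), CENPE (0.732), CCNB1 (0.688) and UBE2C, which does not show that their responses were equal.

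COAD and TNBC received the same dilution and share a count table, so they can be compared directly. Of the 40 genes, 7 differed, where 6.78% of the 24631 genes tested did. In COAD minus TNBC, the difference was -0.53 (SE 0.0907, adjusted p = 0.00027) for INCENP, -0.4 (SE 0.0688, adjusted p = 0.000312) for FOXM1 and -0.38 (SE 0.107, adjusted p = 0.0321) for TOP2A. For the kinase PLK1 it was -0.3 (SE 0.0873, adjusted p = 0.0309), and for the kinase AURKB -0.27 (SE 0.0813, adjusted p = 0.0361). CDC25B gave -0.33 (SE 0.069, adjusted p = 0.002) and TPX2 -0.29 (SE 0.0747, adjusted p = 0.0133). All 7 were lower in COAD relative to TNBC. MKI67 had the largest difference of the 40, -0.55 (SE 0.197, adjusted p = 0.111), with a wide error, and MYBL2, at 0.13 (SE 0.0734, adjusted p = 0.326), had the highest value of the 40. The number that differed was 4 without COAD Ocoxin replicate 3, without TNBC Ocoxin replicate 2 or without TNBC control replicate 3. In these settings 4.1%, 4.58% and 5.45% of all genes tested differed.

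**Figure D5:**
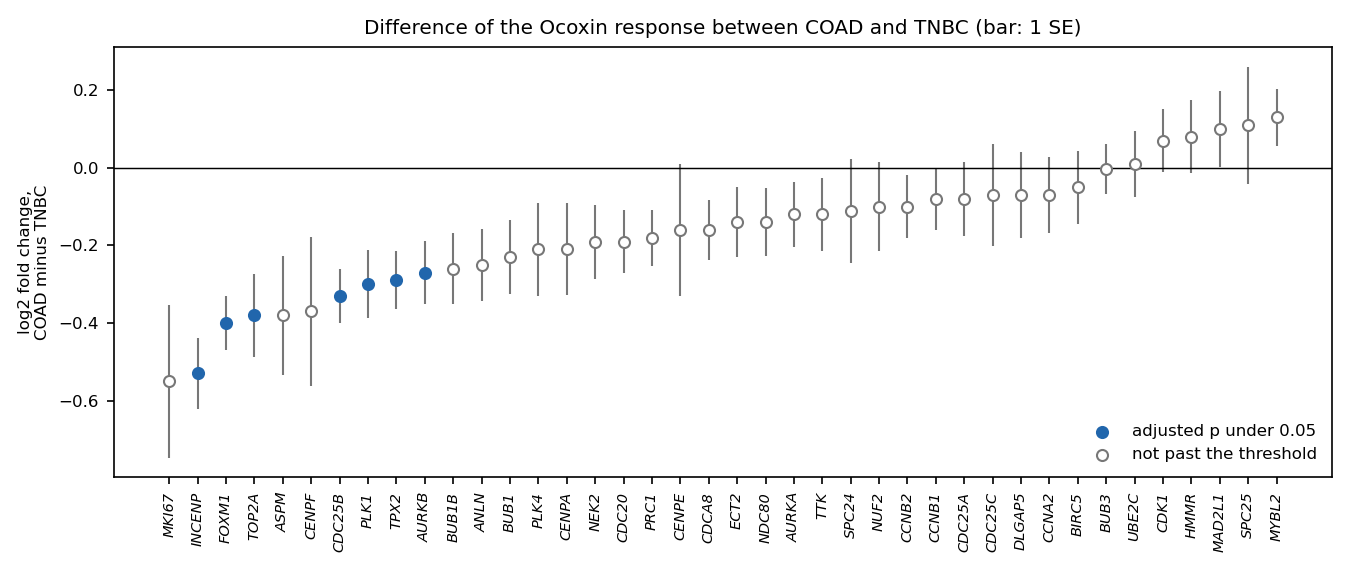
Difference between the log2 fold changes of COAD and TNBC (y axis, bars 1 SE) for the 40 mitotic genes in order of size; filled points passed an adjusted p of 0.05. INCENP (-0.53), FOXM1 (-0.4) and TOP2A (-0.38) are the lowest of the 7 that passed.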

How the data were processed

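RNA of 24 libraries was sequenced by the authors from stranded mRNA libraries. Per the labels and the study's methods, reads were trimmed with fastp, aligned to hg38 with STAR, freed of PCR duplicates with picard and counted by featureCounts 2.0.3. The deposited values are raw gene counts over exons, primary alignments alone, for 58051 genes, with strand not used. The PRAD table counted 1 per fragment and the other table about 2. In PRAD no gene reached 1 count per exonic base, and the 40 genes stayed at or below 0.499. The highest value of a library was 0.782 to 0.995 in PRAD and 34.14 to 48.97 in the other lines. With PRAD counts corrected for shared read starts, the median of the 40 genes was -0.32 in place of -0.27. Then 3 were called, all lower, where 147 of 17075 genes fell and 403 rose. The tests of differences among lines used uncorrected counts, and the part of shared starts in them was not tested. Symbols were matched for 56948 identifiers. Groups came from sample titles, because the labels give the dilution for controls too.

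Counts were scaled by TMM, filtered by filterByExpr and tested with edgeR 4.0.16 (robust quasi-likelihood F-test, two-sided, R 4.3.3) within each line, adjusting by Benjamini-Hochberg over every gene in the test, with a threshold of 0.05 without a minimum fold. Differences between lines were tested as interactions in a fit of all 24 libraries. The test was checked on simulated counts: at 1.25-fold the share of changed genes recovered was 74% for COAD, 60% for PAAD, 62% for TNBC and 48% for PRAD. Changes under 1.25-fold, which most of the 40 genes had in every line, were not simulated, nor was a shift of a whole library. The labels do not say that a replicate number marks a shared culture or day. Over all genes tested, no line had every same-numbered pair correlated above 0.1 in its deviations from the group means, so the replicate number was not treated as a pairing and a fit with it as a block is an alternative. Among genes of at least 5 CPM, every pair exceeded 0.1 in PAAD, PRAD and TNBC but not in COAD, so this choice is open. Genes given with the value in every library were a fixed selection over the roles, those called in 2 or more lines and the 2 with the largest change each way per line. Alternatives were DESeq2 1.42.0, its size factors, other filters on low counts, 1 fit of all libraries, the block, removal of length and GC trends, stricter thresholds, halved counts or counts corrected for shared read starts, and leaving out each library. The 40 genes and all lists were chosen with earlier results of these data known.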

Additional observations from a re-analysis of the deposited data

Results flagged for a closer look

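The response to Ocoxin differed among the 4 cell lines, by the interaction test in edgeR adjusted over all genes tested, for 14 of the 40 genes. Of all 24631 genes tested, 10.9% differed. The adjusted p was 0.00183 for CDC25A, 1.57e-06 for CDC25B, 0.0123 for PLK4, 0.000405 for AURKB, 0.0381 for BUB1, 0.00767 for BUB1B and 0.0119 for TPX2. It was 0.0426 for TOP2A, 0.0225 for SPC24, 2.13e-05 for INCENP, 0.00418 for CDCA8, 0.0198 for ANLN, 5.24e-07 for FOXM1 and 0.000202 for MYBL2. Between COAD and TNBC, given the same dilution, the response was lower in COAD on the log2 scale for 7 genes, with differences of -0.33 for CDC25B, -0.3 for PLK1, -0.27 for AURKB, -0.29 for TPX2, -0.38 for TOP2A, -0.53 for INCENP and -0.4 for FOXM1. Of all genes tested, 6.78% differed between these lines. The 7 became 4 without COAD Ocoxin replicate 3, TNBC Ocoxin replicate 2 or TNBC control replicate 3. In these settings 4.1%, 4.58% and 5.45% of all genes differed. Groups of 3 libraries were too small to look for single outlying values.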

How the results depend on the processing

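The median log2 fold change of the 40 genes kept its sign in COAD and PRAD under every alternative run. Among the 20 genes given by library, no called value changed sign. Counts of called genes moved more, in places with those of all genes, which follow in brackets as lower and higher. In COAD, 14 (192 and 259) became 7 with all 24 libraries in 1 fit (101 and 187) and 33 with length and GC trends removed under the block (1755 and 883). It became 9 at an adjusted p of 0.01, and 4 to 17 with a library left out (24 to 428 and 97 to 354). In PAAD, 2 (625 and 815) became 5 with the trends removed (1226 and 1113) and 12 with the block as well (1820 and 1561). It became 2 to 4 with a library left out (290 to 843 and 351 to 872). In PRAD, 2 (99 and 409) became 12 by DESeq2 (174 and 436), 28 in the fit of all libraries (407 and 591), 34 with the trends removed (1754 and 690) and 37 with the block as well (3959 and 1520). It became 21 without a filter on low counts (402 and 690 of 33271), 0 at 0.01, and 0 to 4 with a library left out (0 to 83 and 3 to 315). In TNBC, 9 (1969 and 1675) became 4 in the fit of all libraries (1676 and 1059) and 16 with the trends removed under the block (3406 and 2318). It became 14 without the filter (2285 and 1935 of 29971), and 6 to 11 with a library left out (1297 to 2036 and 981 to 1828). At 1.5-fold or more, 0 of the 40 passed in any line. The number that differed among lines, 14, became 29 with the trends removed (16.3% of all genes, from 10.9%), 8 at 0.01 and 12 to 16 with a library left out (8.25% to 12.1%). The number between COAD and TNBC, 7, became 3 at 0.01 and 4 to 8 with a library left out (3.91% to 8.27% of all genes, from 6.78%). Calls over all genes at 0.01 or at 1.5-fold are not given here, so those drops cannot be read as particular to the 40 genes. Apart from the settings' own numbers of genes or libraries, the cause was not tested.

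With the replicate number as a block, the called genes numbered 24 for COAD (1060 lower and 865 higher of all genes), 17 for PAAD (1908 and 2090), 16 for TNBC (3054 and 2824) and 26 for PRAD (459 and 992). With the block 29 of the 40 differed among lines (23.3% of all genes) and 13 between COAD and TNBC (15% of all genes). Over all genes tested, correlations of same-numbered libraries were 0.122, -0.00282 and 0.197 in COAD, 0.0683, 0.0302 and 0.14 in PAAD, 0.232, 0.0864 and 0.396 in PRAD and 0.0827, 0.072 and 0.249 in TNBC, and 4, 5, 5 and 4 of the 6 libraries correlated best with their own number. Restricting the check to more abundant genes was tried after these values and the block's counts had been seen. At a mean of at least 1 CPM every pair exceeded 0.1 in PAAD and TNBC, and at 5, 10 and 20 CPM in PRAD also, but at none in COAD (lowest 0.0978 at 20 CPM). At 5 CPM, 6 of the 6 libraries correlated best with their own number in PAAD and in PRAD, and 4 in COAD and in TNBC. Since the reading of the numbers turns on that choice, they were not read as a pairing. PRAD libraries, with 9063968 to 9520969 counts, were the shallowest.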
